A study of Mus musculus with 12 samples.

Results

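The loss of IKAROS was examined in erythroid cells kept on OP9, a bone marrow stromal cell line that carries hematopoietic cells in culture and that here had no added NOTCH ligand. The 3 IkNull/OP9 libraries (replicates 1, 2 and 3) were compared with the 3 IkWT/OP9 libraries (replicates 1, 3 and 4), which are 6 of the 12 libraries of the study. The other 6 carry the same culture numbers and come from OP9-DL1, the OP9 line made to express the NOTCH ligand Delta-like 1. IkNull cells are homozygous for an Ikzf1 allele that lacks the last translated exon, while IkWT cells carry the intact gene. Both came from mouse embryos of the CD1 strain as e14.5 fetal liver cells, which were kept for 48 h on the stroma with erythropoietin at 2 U/mL. The study describes a sort of Ter119+ cells, whereas the labels, which also name the cells Ter119+, describe their recovery through a 40 µm filter. Ter119 marks erythroid cells from the early erythroblast onward.

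IKAROS, encoded by Ikzf1, is a zinc finger protein that binds DNA and brings chromatin complexes such as NuRD to genes, where it can lower or raise their transcription. It is best known for its part in lymphoid development, and in erythroid cells it has been tied to the change from embryonic or fetal to adult globin genes. The erythroid cells of the fetal liver mature in islands around macrophages, next to hepatoblasts, megakaryocytes and other blood cells.

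Each value is a count of reads per gene divided by a size factor of the library, here called a normalized count. Libraries summed to between 18285417 and 29685344 normalized counts, and values are given in the order of the replicate numbers above. The first principal component, with 56.9% of the variance, parted the genotypes, and the second, with 20.6%, parted replicate 1 of both genotypes from the other 4 libraries. Ikzf1 (chromosome 11, 11685003 to 11772926 on GRCm38) had 2633, 2189.7 and 1817 normalized counts in IkNull/OP9 libraries, against 2534, 2573 and 2424 in IkWT/OP9 libraries. The deletion takes out 1 exon only, so that counts summed over all exons are no check on the genotype. Transcripts that define erythroid cells were abundant in all 6 libraries. Gata1, the erythroid transcription factor, had 7281, 6174 and 6399 normalized counts in IkNull/OP9 libraries, against 11104, 7057 and 8478 in IkWT/OP9 libraries. Klf1, Slc4a1, Alas2, Hba-a1 and Hbb-b1 were likewise high, and none of these 6 markers passed the test between the genotypes.

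IkNull/OP9 and IkWT/OP9 cells differed in both directions, with more and larger differences upward in IkNull/OP9 cells. For each of 13736 genes whose mean reached 5 normalized counts, log2(normalized count + 1) was compared with limma, and a gene is called higher or lower where its p, adjusted by the method of Benjamini and Hochberg, is under 0.05 and its log2 change reaches 0.8 in either direction. Against IkWT/OP9 cells, 829 genes (6.04%) were called higher in IkNull/OP9 cells and 302 (2.20%) lower. Before adjustment, p was under 0.05 for 2308 genes that were higher and 1639 that were lower, and the median log2 change over all genes tested was 0.00. All 3 IkNull/OP9 values lay above all 3 IkWT/OP9 values for 2359 genes (17.2%) and below them for 2297 (16.7%). Every called gene was among these. Fold changes are on the log2(normalized count + 1) scale, which understates the change of genes with low counts, and errors on them are standard errors with 3 libraries in each group. Nothing in the labels says that the numbered cultures came from separate litters, so p-values measure the spread between these cultures.

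The higher genes were typically low in IkWT/OP9 cells. Their median mean was 266 normalized counts in IkNull/OP9 cells and 54.7 in IkWT/OP9 cells, with a median log2 change of 2.16. Of the 829, 200 had a mean under 10 in IkWT/OP9 cells, 465 had a log2 change of at least 2 and 88 of at least 4. Together the higher genes held 3.96%, 5.07% and 5.64% of all counts in IkNull/OP9 libraries, against 1.04%, 1.4996% and 1.36% in IkWT/OP9 libraries. The lower genes were at a higher level in IkWT/OP9 cells and changed less. Their median mean was 271 in IkNull/OP9 cells and 634 in IkWT/OP9 cells, the median log2 change was -1.28, and 56 of the 302 had a change of at least 2 in size. They held 0.716%, 0.556% and 0.754% of the counts in IkNull/OP9 libraries, against 1.95%, 2.22% and 2.11% in IkWT/OP9 libraries. Both sets were picked by their difference in these same libraries, so the direction of these levels and shares follows from the choice. The filter took the mean over both genotypes, so a gene could pass it through the genotype where it was high.

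**Figure D1:**
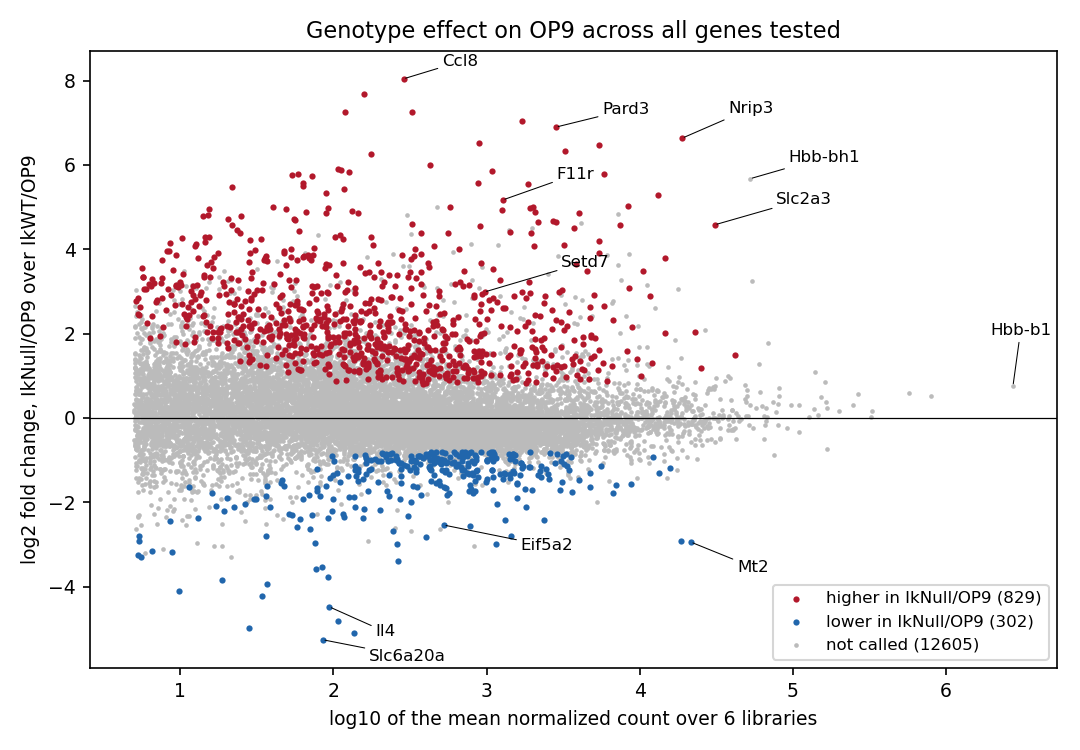
Log2 fold change of IkNull/OP9 over IkWT/OP9 cells (vertical axis) against the log10 of the mean normalized count over 6 libraries (horizontal axis), 1 point per gene tested. Red points are the 829 genes called higher, blue points the 302 called lower and grey points the rest. Most large changes are upward and sit at low to middle levels, while the most abundant gene, Hbb-b1, was not called.

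The rise with the smallest p was that of F11r, which encodes the junctional adhesion molecule JAM-A (chromosome 1, 171437535 to 171464603). It had 2698, 2554 and 2229.6 normalized counts in IkNull/OP9 libraries, against 72.9, 68.8 and 62.8 in IkWT/OP9 libraries. The spread within each genotype was small against the gap between them, and the log2 change was 5.17 ± 0.18 (limma adjusted p = 3.81e-05). Pard3, the polarity scaffold that binds JAM-A at cell junctions (chromosome 8, 127063893 to 127612286), had 5265, 5109.7 and 6587 normalized counts in IkNull/OP9 libraries, against 49.9, 28.5 and 68.5 in IkWT/OP9 libraries, a log2 change of 6.90 ± 0.31 (limma adjusted p = 0.000169). Setd7 (chromosome 3, 51515319 to 51560879), a lysine methyltransferase, rose less in fold but with equally tight values. It had 1749.5, 1757 and 1668 normalized counts in IkNull/OP9 libraries, against 184, 242 and 228 in IkWT/OP9 libraries (log2 change 2.99 ± 0.18). All 3 kept their call in each of the 6 fits that left out 1 library.

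Several genes rose to be among the abundant messages of IkNull/OP9 cells. Nrip3, nuclear receptor interacting protein 3, had 43552, 35228 and 34025 normalized counts in IkNull/OP9 libraries, against 811, 348 and 186 in IkWT/OP9 libraries, a log2 change of 6.64 ± 0.47. Slc2a3, the glucose transporter GLUT3, had 99767, 45087 and 34528 normalized counts in IkNull/OP9 libraries, against 3406, 1701 and 1953 in IkWT/OP9 libraries. Its values in IkNull/OP9 cells differed among themselves, with replicate 1 the highest, yet each lay far above all of IkWT/OP9. Snx5, a sorting nexin of the endosome, had 29929, 21014 and 30835 normalized counts in IkNull/OP9 libraries, against 1625, 2324 and 1944 in IkWT/OP9 libraries (log2 change 3.79 ± 0.24). Snx5 overlaps Mgme1 on the other strand and Gm11688 on its own, and the strand setting of the counting is not given in the sources used here, so these reads cannot be assigned with certainty. Maml3, a coactivator of the NOTCH transcription complex, rose as well, with 1691, 1771 and 1942 normalized counts in IkNull/OP9 libraries, against 384, 173 and 252 in IkWT/OP9 libraries. The genotypes did not overlap for Maml3, and its log2 change was 2.81 ± 0.28 (limma adjusted p = 0.00223).

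Other large rises came from genes that were nearly silent in IkWT/OP9 cells. Creb3l1, a membrane-bound factor of the CREB family, had 5216, 3367 and 1511 normalized counts in IkNull/OP9 libraries, against 16.3, 16.7 and 36.2 in IkWT/OP9 libraries. Orm1, an acute-phase plasma protein, had 137, 295 and 279 normalized counts in IkNull/OP9 libraries, against 0, 0.620 and 0.952 in IkWT/OP9 libraries, and Car4, a carbonic anhydrase of the cell membrane, had 80.3, 310.3 and 555 normalized counts in IkNull/OP9 libraries, against 0, 0.620 and 0 in IkWT/OP9 libraries. No IkWT/OP9 library reached 1 normalized count for Orm1 or Car4. Heph, which encodes the iron oxidase hephaestin, had 119, 161 and 93.4 normalized counts in IkNull/OP9 libraries, against 1.92, 2.48 and 0.952 in IkWT/OP9 libraries (log2 change 5.50 ± 0.41). Actl6b, the neuronal actin-like subunit of the BAF complex, had 30.9, 45.4 and 14.1 in IkNull/OP9 libraries and was at 0 in the 3 IkWT/OP9 libraries, which makes it at least 10.04-fold higher against a floor of 3 counts per library. Ctsk, the protease cathepsin K, had 2859, 2397 and 62.3 normalized counts in IkNull/OP9 libraries, against 10.5, 3.72 and 9.52 in IkWT/OP9 libraries. Its value in IkNull/OP9 replicate 3 was far below the other 2 of that genotype, and the call (log2 change 6.51 ± 1.33) was kept in 2 of the 6 fits that left out a library.

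**Figure D2:**
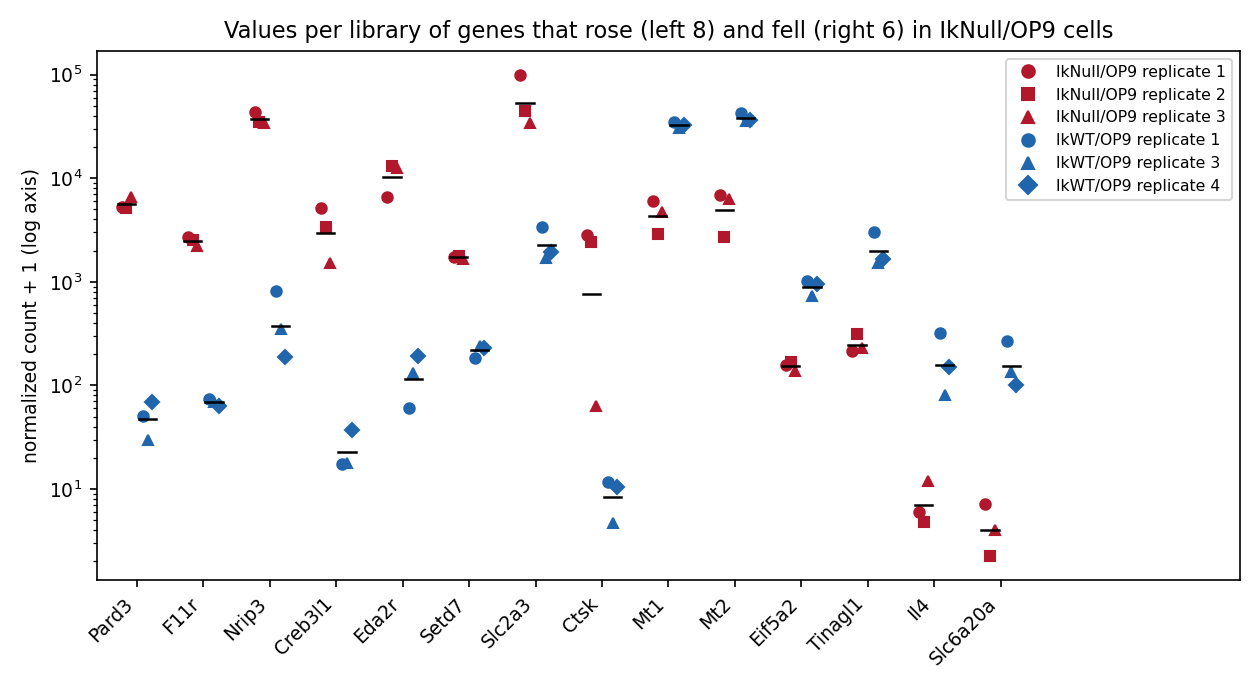
Normalized count + 1 on a log axis for 14 genes, with 1 symbol per library (red IkNull/OP9 left of blue IkWT/OP9, symbol shape for the replicate number) and black bars for the geometric mean of 3 libraries. The left 8 genes are higher and the right 6 lower in IkNull/OP9 cells, and the groups do not overlap for any of them, although Ctsk in IkNull/OP9 replicate 3 lies far below the other 2.

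The most abundant transcripts that fell were those of the metallothioneins Mt1 and Mt2, small proteins that bind zinc and copper and are induced by metals through the factor MTF1. Mt1 (chromosome 8, 94179082 to 94180327) had 6029, 2902 and 4731 normalized counts in IkNull/OP9 libraries, against 35314, 30484 and 32732 in IkWT/OP9 libraries. Mt2 (chromosome 8, 94172664 to 94173568) had 6907, 2736 and 6273 normalized counts in IkNull/OP9 libraries, against 42298, 35545 and 36227 in IkWT/OP9 libraries. Every IkNull/OP9 library was far below every IkWT/OP9 library for both genes. The log2 changes were -2.91 ± 0.30 for Mt1 (limma adjusted p = 0.00227) and -2.95 ± 0.37 for Mt2 (limma adjusted p = 0.00469). The pair held 0.0464%, 0.0210% and 0.0458% of counts in IkNull/OP9 libraries, against 0.261%, 0.361% and 0.329% in IkWT/OP9 libraries (exact permutation p = 0.1, the smallest that 3 against 3 libraries allow). Of 17 metallothionein and zinc genes tested these 2 were lower and 1, the zinc importer Slc39a1, was higher, beside 2.20% and 6.04% of all genes. The Slc39a1 call was lost with TMM scaling, the same total, edgeR and DESeq2. It was kept in only 1 of the 6 fits that left out a library. The median of the list was 0.13 and turned to -0.09 when every library was set to the same total. Mtf1 itself had 950.1, 798 and 1009.8 normalized counts in IkNull/OP9 libraries, against 1916, 1493 and 1355 in IkWT/OP9 libraries and did not pass the test (limma adjusted p = 0.052).

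The 2 neighbouring metallothionein genes share a known kind of control sequence, and their promoters are shown for that reason. They were chosen after the values were seen. The sequences are the 250 bases before the start site from RefSeq on GRCm38.p6, with matches to the metal response core in capitals, searched as TGCACNC or TGCGCNC on both strands.
Mt1 promoter, chr8:94178839-94179088, + strand: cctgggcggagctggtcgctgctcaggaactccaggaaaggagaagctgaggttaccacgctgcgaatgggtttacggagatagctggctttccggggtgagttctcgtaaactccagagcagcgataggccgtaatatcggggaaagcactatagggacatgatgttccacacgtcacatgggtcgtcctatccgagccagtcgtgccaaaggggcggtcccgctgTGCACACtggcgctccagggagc
Mt2 promoter, chr8:94172368-94172617, + strand: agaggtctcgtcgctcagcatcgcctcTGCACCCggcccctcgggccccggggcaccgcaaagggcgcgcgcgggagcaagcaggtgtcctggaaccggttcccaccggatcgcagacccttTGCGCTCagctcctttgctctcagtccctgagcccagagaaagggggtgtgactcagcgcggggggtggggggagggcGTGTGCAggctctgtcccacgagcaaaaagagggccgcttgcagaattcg
The Mt1 window held 1 match and the Mt2 window held 3, of which 1 was on the minus strand. The RefSeq starts differ from the gene starts given above. The Mt1 window runs past its gene start and the Mt2 window ends before its own. Bases outside these windows are not covered by these counts. A match to the metal response core stood in 21.4% of all 32817 promoters. It stood in 36.6% of the 317 promoters found for 237 genes that fell and in 27.0% of the 790 promoters found for 594 genes that rose. The set of all promoters was not limited to genes tested here, so these shares show no enrichment among tested genes. A match is a run of letters and not a bound site.

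The other falls were spread over unrelated functions. Eif5a2, a translation factor that carries hypusine (chromosome 3, 28781276 to 28798846), had 156, 168 and 136 normalized counts in IkNull/OP9 libraries, against 1017, 735 and 953 in IkWT/OP9 libraries (log2 change -2.54 ± 0.20, limma adjusted p = 0.00121). Tinagl1, a secreted matrix protein, had 214, 312 and 226 normalized counts in IkNull/OP9 libraries, against 3000, 1531 and 1652 in IkWT/OP9 libraries. Havcr2, the surface receptor TIM-3, had 82.8, 122 and 99.5 normalized counts in IkNull/OP9 libraries, against 509, 425 and 610.3 in IkWT/OP9 libraries (log2 change -2.33 ± 0.24). For these 3 genes the IkNull/OP9 libraries were alike and lay well below all of IkWT/OP9. The deepest falls ended near 0 counts. Slc6a20a, an amino acid transporter, had 6.18, 1.26 and 3.01 normalized counts in IkNull/OP9 libraries, against 267, 134 and 101 in IkWT/OP9 libraries, a log2 change of -5.26 ± 0.54, and Stk32b, a serine-threonine kinase, had 2.47, 2.52 and 2.01 normalized counts in IkNull/OP9 libraries, against 101, 46.5 and 49.5 in IkWT/OP9 libraries. Il4, the cytokine interleukin-4, had 4.94, 3.78 and 11.1 normalized counts in IkNull/OP9 libraries, against 316, 79.3 and 149 in IkWT/OP9 libraries (log2 change -4.48 ± 0.57). IkWT/OP9 replicate 1 was the highest library for each of them. Dclk2, a doublecortin-like kinase, Cacna1g, a T-type calcium channel, Stard10 and Ppap2a, which act on lipids, and Nanos1, an RNA-binding repressor of translation, also fell, by 2.96 to 4.81 in log2.

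Abundant genes fell by smaller steps. Arrb1, which encodes beta-arrestin 1, had 9668, 6022 and 7068 normalized counts in IkNull/OP9 libraries, against 26056, 14599 and 16549 in IkWT/OP9 libraries, and Slc1a5, a glutamine transporter, had 4604, 2212 and 3931 normalized counts in IkNull/OP9 libraries, against 12758, 8157 and 10697 in IkWT/OP9 libraries. Cyb5r1, Pabpc4, which binds poly(A) tails, the transcript elongation factor Tcea1 and the chromatin protein Dek fell by 0.92 to 1.79 in log2. The calls of these 6 genes were kept in 1 to 3 of the 6 fits that left out a library.

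Pard3 belongs to a list of 17 genes of cell polarity complexes, which set up the sides of a cell, and 14 of them were tested. Besides Pard3, the small GTPase Cdc42 rose, with 16641, 17632 and 16766 normalized counts in IkNull/OP9 libraries, against 7810.1, 5939 and 7011 in IkWT/OP9 libraries, as did Llgl2 and the low Pard3b, while Llgl1 fell by 1.04 in log2. The list counted 4 higher and 1 lower, beside 6.04% and 2.20% of all genes. Its median was 0.05 (-0.15 at the same total), beside the median of 0.00 over all genes. Pard3 alone was higher in every fit that left out a library, Cdc42 was called in 4 of 6 and Llgl2 in 1 of 6.

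Interferon-stimulated genes, which cells switch on against viruses after interferon or foreign nucleic acid is sensed, were the list with the largest median rise. Of 64 tested, 21 were higher and none was lower, beside 6.04% and 2.20% of all genes. By limma with p under 0.05 before adjustment, 55 were higher and 0 lower. The median log2 change was 2.82, 62 were positive, and for 40 all IkNull/OP9 values lay above all of IkWT/OP9, beside 17.2% of all genes. The libraries of the mutant differed widely among themselves. The list level, the mean of log2(normalized count + 1) over its tested members, was 8.84, 11.43 and 12.54 in IkNull/OP9 libraries, against 7.26, 8.64 and 7.97 in IkWT/OP9 libraries. IkNull/OP9 replicate 1 lay just above IkWT/OP9 replicate 3, and replicates 2 and 3 far above both. In summed counts the list held 0.347%, 2.20% and 5.26% of each IkNull/OP9 library, against 0.397%, 0.560% and 0.466% of each IkWT/OP9 library, so that the groups overlapped (exact permutation p = 0.4). The number of members called turned on single libraries. It was 55 without IkNull/OP9 replicate 1, 0 without IkNull/OP9 replicate 2, 4 without IkNull/OP9 replicate 3, 2 without IkWT/OP9 replicate 1, 18 without IkWT/OP9 replicate 3 and 0 without IkWT/OP9 replicate 4. With edgeR on the 5 libraries whose reads could be recovered it was 6, and with DESeq2 40.

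Among the 21 were sensors, effectors and transcription factors of this response. Ifih1, the RNA sensor MDA5, had 1463, 5101 and 9530.1 normalized counts in IkNull/OP9 libraries, against 356, 895 and 446 in IkWT/OP9 libraries, and Ddx58, the sensor RIG-I, had 1027, 7187 and 13520 normalized counts in IkNull/OP9 libraries, against 264, 562 and 331 in IkWT/OP9 libraries. Mx2, a dynamin-like antiviral GTPase, had 993, 10576 and 23058 normalized counts in IkNull/OP9 libraries, against 68.1, 204 and 101 in IkWT/OP9 libraries (log2 change 5.79 ± 1.04, limma adjusted p = 0.0174). In each case IkNull/OP9 replicate 1 was the lowest mutant library and replicate 3 the highest. The transcription factors Irf1 and Stat2 had log2 changes of 4.08 ± 0.83 and 2.74 ± 0.68. Guanylate-binding proteins, GTPases that attack intracellular pathogens, were called 5 times (Gbp2, Gbp3, Gbp5, Gbp6 and Gbp7), the largest log2 change being that of Gbp3 at 5.55 ± 1.03. Gbp3 had 326, 2839 and 7815 normalized counts in IkNull/OP9 libraries, against 21.1, 58.2 and 53.3 in IkWT/OP9 libraries. Ifitm2 and Ifitm3, membrane proteins that hinder virus entry, had log2 changes of 2.00 ± 0.44 and 4.58 ± 1.04. Isg15, the ubiquitin-like modifier, did not pass (log2 change 3.24, limma adjusted p = 0.0652), but Uba7 and Ube2l6, the enzymes that activate and carry it, did. Uba7 had 15598, 44497 and 54149.5 normalized counts in IkNull/OP9 libraries, against 9812, 7718 and 7243 in IkWT/OP9 libraries, and Ube2l6 had 41181, 80509.7 and 64964 normalized counts in IkNull/OP9 libraries, against 18844, 21126 and 23763 in IkWT/OP9 libraries. Both calls were kept in 1 of the 6 fits that left out a library. Gbp, Oas1 and Ifit genes have close copies, and reads could be split among them.

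**Figure D3:**
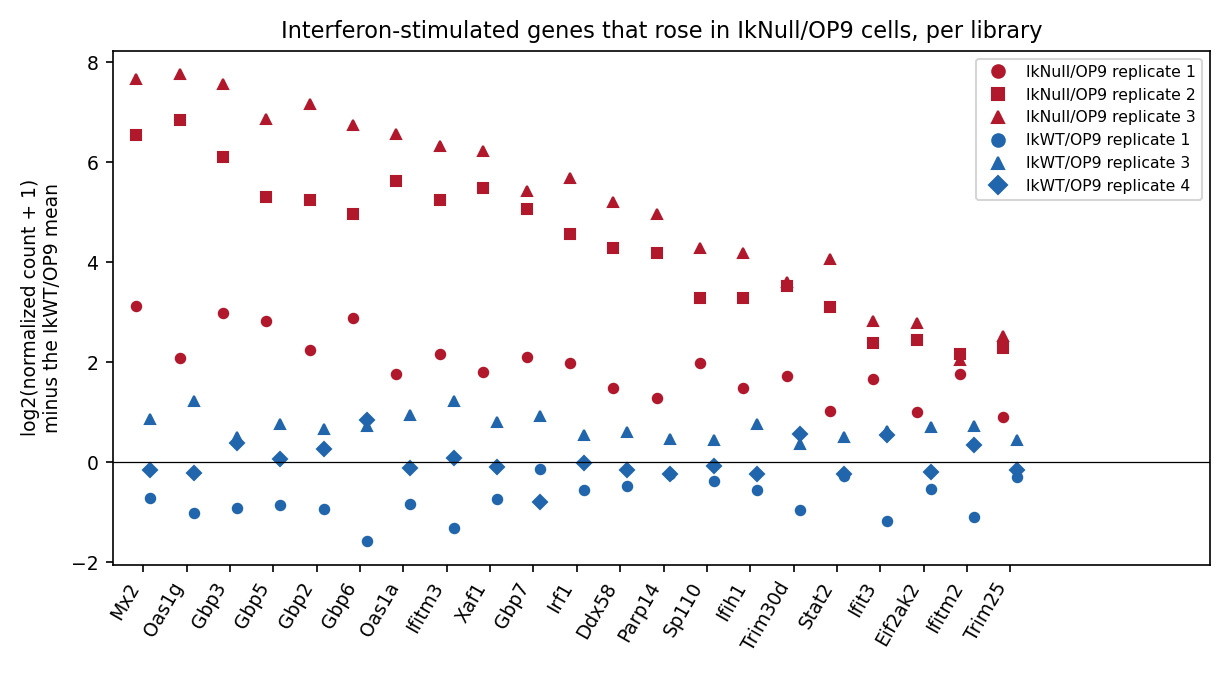
Log2(normalized count + 1) minus the IkWT/OP9 mean for the 21 interferon-stimulated genes called higher, 1 symbol per library (red IkNull/OP9 left of blue IkWT/OP9). IkNull/OP9 replicate 1 (circle) is the lowest red symbol for all 21 genes and comes closest to the blue ones for Trim25, Eif2ak2 and Stat2, while replicates 2 (square) and 3 (triangle) lie well above them.

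The response to interferon is carried by a short promoter motif, and 2 promoters of the called genes are shown with it, chosen after the values were seen. The sequences are again the 250 bases before the start site from RefSeq on GRCm38.p6. Capitals mark matches to the core of the interferon-stimulated response element, GAAA, any 2 bases and GAAA again, searched on both strands. The matches shown lie on the minus strand and so read as TTTC, 2 bases and TTTC.
Gbp3 promoter, chr3:142559794-142560043, + strand: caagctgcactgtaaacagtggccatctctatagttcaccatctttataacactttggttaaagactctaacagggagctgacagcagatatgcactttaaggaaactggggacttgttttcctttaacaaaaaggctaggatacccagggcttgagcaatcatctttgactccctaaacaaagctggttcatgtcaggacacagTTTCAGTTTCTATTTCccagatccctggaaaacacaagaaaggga
Ifit3 promoter, chr19:34583279-34583528, + strand: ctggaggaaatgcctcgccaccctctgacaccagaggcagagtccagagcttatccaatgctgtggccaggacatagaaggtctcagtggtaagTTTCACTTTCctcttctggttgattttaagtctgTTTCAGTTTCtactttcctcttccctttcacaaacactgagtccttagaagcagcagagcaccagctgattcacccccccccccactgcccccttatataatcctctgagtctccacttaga
The Gbp3 window shown held 2 matches that overlap each other, while the window of a second RefSeq start of Gbp3 held 0, and the Ifit3 window held 2 that do not. Ifit3 had 81.5, 135 and 185 normalized counts in IkNull/OP9 libraries, against 10.5, 39.0 and 37.1 in IkWT/OP9 libraries. The motif stood in 974 of 32817 promoters (2.97%), in 23 of the 59 promoters found for 49 tested members of the interferon list (39.0%), in 4.43% of the promoters of all genes that rose and in 2.84% of those that fell. The core letters TGGGAA, which IKAROS is known to bind, stood on either strand in 21.6% of all promoters, in 23.7% of those of genes that rose and in 17.4% of those of genes that fell. Here too the set of all promoters was not limited to genes tested.

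Genes of MHC class I presentation, many of which also answer to interferon, had the same shape. Of 25 tested 4 were higher and none lower, beside 6.04% and 2.20% of all genes. The higher ones were the heavy chains H2-K1, H2-Q4 and H2-Q7 and the loading factor Tapbp. By limma with p under 0.05 before adjustment, 17 were higher and 0 lower, and the median was 1.93. H2-K1 had 1032, 2230.1 and 3604 normalized counts in IkNull/OP9 libraries, against 228, 432 and 378 in IkWT/OP9 libraries. The count was 21 without IkNull/OP9 replicate 1, 0 without IkNull/OP9 replicate 2, 0 without IkWT/OP9 replicate 1 and 1 without any 1 of the other 3. H2-Q genes are near-identical copies, so their counts are uncertain. Lgals9, which encodes galectin-9, a ligand of TIM-3, rose with a like order of libraries, with 4059.9, 28138 and 45674 normalized counts in IkNull/OP9 libraries, against 239, 737 and 490.3 in IkWT/OP9 libraries (log2 change 5.29 ± 0.85).

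Markers of megakaryocytes and platelets, the sister lineage of erythroid cells, rose in IkNull/OP9 cells and did so in all 3 mutant libraries. Of 27 tested, 18 were higher and none lower, beside 6.04% and 2.20% of all genes. By limma with p under 0.05 before adjustment, 21 were higher and 0 lower, and the median log2 change was 2.11. Itgb3, the beta chain of the fibrinogen receptor, had 2507, 3659 and 2022 normalized counts in IkNull/OP9 libraries, against 174, 97.9 and 113 in IkWT/OP9 libraries (log2 change 4.40 ± 0.30, limma adjusted p = 0.00095). Its partner Itga2b had 4343, 2784 and 945 normalized counts in IkNull/OP9 libraries, against 553, 185 and 268 in IkWT/OP9 libraries. Pf4, a chemokine of platelet granules, had 1438, 1597 and 877 normalized counts in IkNull/OP9 libraries, against 180.2, 93.5 and 83.8 in IkWT/OP9 libraries, and Thbs1, thrombospondin 1, had 3971, 3913 and 1735 normalized counts in IkNull/OP9 libraries, against 311, 648 and 353 in IkWT/OP9 libraries. In all of these the genotypes were clearly apart, and IkNull/OP9 replicate 3 was the lowest mutant library. Glycoproteins of the platelet surface were at low levels but also called, among them Treml1 with 129.7, 153 and 73.3 normalized counts in IkNull/OP9 libraries, against 9.59, 4.34 and 8.57 in IkWT/OP9 libraries. The summed list held 10551 to 19360.5 normalized counts in IkNull/OP9 libraries, against 2869 to 3805 in IkWT/OP9 libraries. The count of 18 went to 5 without IkNull/OP9 replicate 2 and to 8 without IkWT/OP9 replicate 4, and lay between 12 and 18 without any 1 of the others. In bulk RNA, more cells of a type and more RNA per cell cannot be told apart.

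Endothelial markers were the next group, at much lower levels. Of 25 listed, 17 were tested, and of these 7 were higher and none lower, beside 6.04% and 2.20% of all genes. By limma with p under 0.05 before adjustment, 11 were higher and 0 lower, and the median was 1.88. The called Cdh5, Flt1, Tek and Aplnr had IkWT/OP9 means of 4.03 to 4.30. They reached the mean of 5 needed for testing only through IkNull/OP9 cells, so the count and the median depend partly on the filter. Cdh5, VE-cadherin, had 172, 434 and 439 normalized counts in IkNull/OP9 libraries, against 6.71, 0.620 and 4.76 in IkWT/OP9 libraries (log2 change 6.27 ± 0.65). Kdr, the VEGF receptor 2, had 1097, 825 and 385 normalized counts in IkNull/OP9 libraries, against 65.2, 54.5 and 45.7 in IkWT/OP9 libraries. Tie1, a receptor kinase, had 48.2, 92.1 and 85.4 normalized counts in IkNull/OP9 libraries, against 7.67, 6.20 and 7.62 in IkWT/OP9 libraries. The 3 genes were apart between genotypes in every library and kept their call in each fit that left out a library. The list sum was 2245 to 2731 normalized counts in IkNull/OP9 libraries, against 535 to 675 in IkWT/OP9 libraries. The count was 3 without IkNull/OP9 replicate 2 or without IkWT/OP9 replicate 4, and 4 without IkNull/OP9 replicate 3.

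Genes of eosinophils, basophils and mast cells rose in part. Of 33 listed, 24 were tested, and of these 11 were higher and 1 lower, beside 6.04% and 2.20% of all genes. The median was 1.90, and 8 to 11 were called higher when single libraries were left out. The called Mcpt1 and Mcpt2, with IkWT/OP9 means of 1.35 and 1.58, reached the filter only through IkNull/OP9 cells. Epx, eosinophil peroxidase, had 786, 1082 and 683 normalized counts in IkNull/OP9 libraries, against 25.9, 73.7 and 59.98 in IkWT/OP9 libraries (log2 change 4.07 ± 0.40). Prg2, the major basic protein, had 3624, 4028 and 2568 normalized counts in IkNull/OP9 libraries, against 247, 523 and 346 in IkWT/OP9 libraries. Mcpt1, a mast cell protease, had 92.7, 174 and 79.4 normalized counts in IkNull/OP9 libraries, against 0, 3.10 and 0.952 in IkWT/OP9 libraries. Every mutant library lay far above every IkWT/OP9 library for these genes, and IkWT/OP9 replicate 1 was the lowest of its genotype. Ear1, Ear2 and Ear6, ribonucleases of eosinophils that are close copies of each other, had log2 changes between 3.39 and 3.45. The lower gene was Il4, given above, and 21 of the 24 changes were positive. The list sum was 7568 to 9671 normalized counts in IkNull/OP9 libraries, against 1290.5 to 2689.5 in IkWT/OP9 libraries, and Mrgprb1, a mast cell receptor, was at 0 in all 6 libraries.

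Macrophage and monocyte genes moved in both directions. Of 35 tested, 8 were higher and 2 lower, beside 6.04% and 2.20% of all genes, with a median of 1.18. Mrc1, the mannose receptor, had 2068, 4949.6 and 3199 normalized counts in IkNull/OP9 libraries, against 379, 397 and 465 in IkWT/OP9 libraries (log2 change 2.95 ± 0.31). Cd5l, which macrophages secrete, went the other way with 19.8, 13.9 and 4.02 normalized counts in IkNull/OP9 libraries, against 119.8, 116 and 281 in IkWT/OP9 libraries. Dnase2a, the nuclease with which island macrophages digest expelled nuclei, had 1537, 1209.6 and 1245 normalized counts in IkNull/OP9 libraries, against 5390.1, 2566 and 3405 in IkWT/OP9 libraries and fell too. The list sum was 59055 to 79961 normalized counts in IkNull/OP9 libraries, against 40919.9 to 45053 in IkWT/OP9 libraries, a smaller gap than for the lists above. Without IkNull/OP9 replicate 1 the higher count was 17, without IkNull/OP9 replicate 3 it was 5, and it was 2 without IkNull/OP9 replicate 2, without IkWT/OP9 replicate 1 or without IkWT/OP9 replicate 4. Of 21 neutrophil granule genes 3 were higher (Chi3l3, Fcnb and Ms4a3), beside 6.04% of all genes. Their list sums overlapped, at 45982 to 97373 normalized counts in IkNull/OP9 libraries, against 10804 to 57142 in IkWT/OP9 libraries. The count was 9 without IkWT/OP9 replicate 3 and 1 without IkNull/OP9 replicate 2, IkNull/OP9 replicate 3 or IkWT/OP9 replicate 1. Chi3l3 had 1043, 1475 and 1249 normalized counts in IkNull/OP9 libraries, against 82.5, 198 and 174 in IkWT/OP9 libraries and was called throughout.

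**Figure D4:**
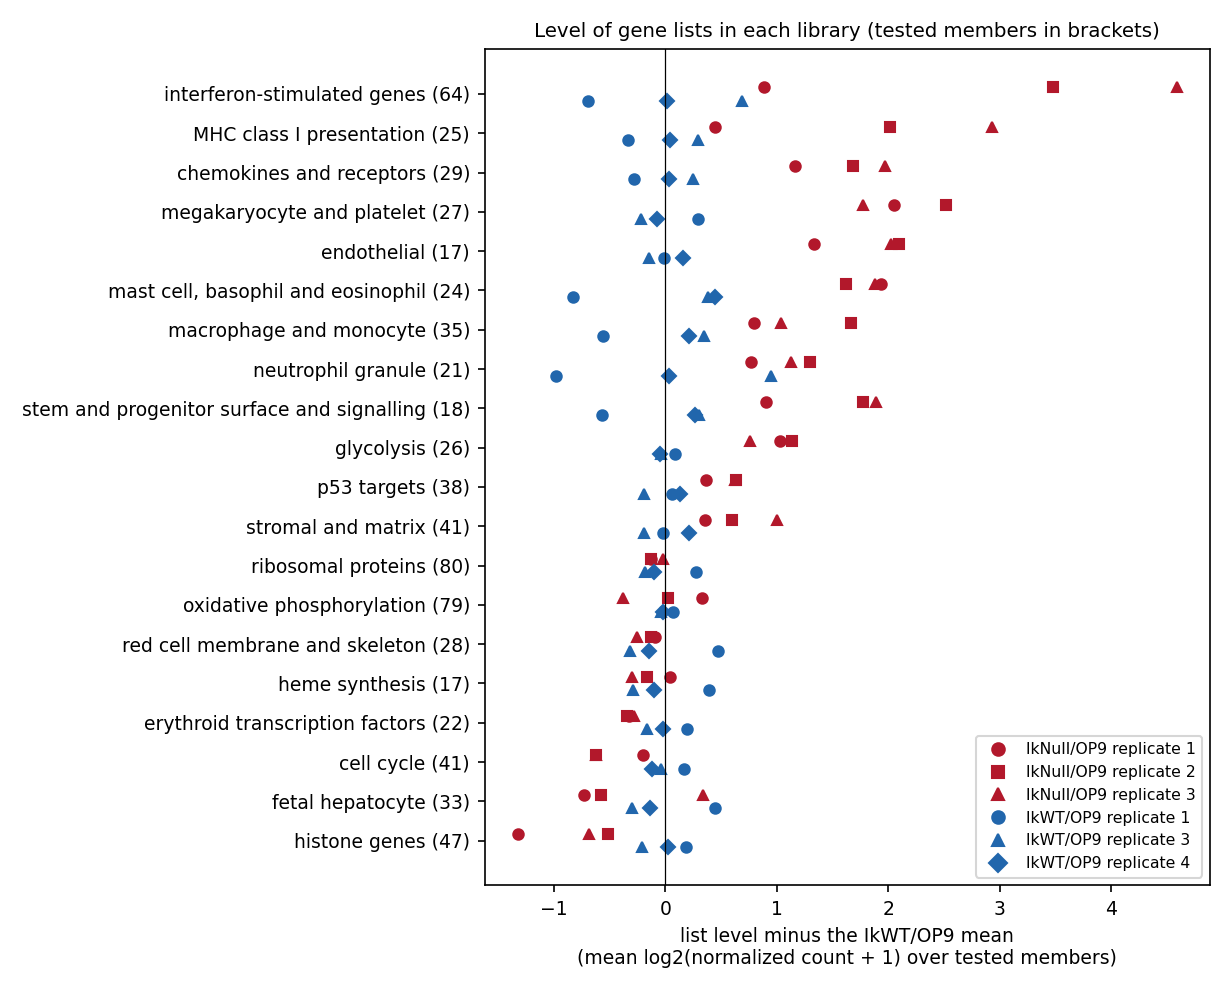
Level of 20 gene lists in each library, as the mean of log2(normalized count + 1) over tested members, minus the mean of the 3 IkWT/OP9 libraries (horizontal axis), with the number of tested members in brackets. Red IkNull/OP9 symbols lie to the right of all blue IkWT/OP9 symbols for 11 of the upper 12 lists, the exception being neutrophil granule genes. They lie among or on both sides of the blue ones for ribosomal, respiratory, heme, membrane and fetal hepatocyte genes. For erythroid transcription factors, cell cycle and histone genes all red symbols lie to the left of all blue ones.

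Lists of the remaining cell types held fewer calls. The shares over all genes tested were 6.04% higher and 2.20% lower. Of 33 fetal hepatocyte genes, 1 was higher, Orm1, and none was lower (limma; 2 higher and 7 lower with p under 0.05 before adjustment, 1 lower with edgeR and 10 lower with DESeq2), with a median of -0.61 and list sums of 7909 to 14686 normalized counts in IkNull/OP9 libraries, against 10355 to 16299.9 in IkWT/OP9 libraries. Of 41 stromal and matrix genes 5 were higher, among them the matrix proteases Mmp2 and Mmp14 and Igfbp4, which binds insulin-like growth factors. Mmp14 had 225, 359 and 296 normalized counts in IkNull/OP9 libraries, against 43.1, 53.9 and 49.5 in IkWT/OP9 libraries. Without IkNull/OP9 replicate 1 the stromal count was 9, without IkNull/OP9 replicate 2 it was 2, and without any 1 of the IkWT/OP9 libraries it was 3. The stromal list sum was 18625 to 21540.1 normalized counts in IkNull/OP9 libraries, against 11427 to 12318 in IkWT/OP9 libraries, and OP9 is itself a stromal cell. Of 8 adipocyte genes tested 2 were higher, Cd36 and Lpl, with 4272 to 10945 normalized counts in IkNull/OP9 libraries, against 2090.1 to 2718 in IkWT/OP9 libraries, while Cfd, Cidec, Ebf2 and Lep were at 0. The adipocyte count was 7 without IkNull/OP9 replicate 1, 4 without IkWT/OP9 replicate 3 and 1, Cd36, without any 1 of the others. Of 18 lymphoid genes 1 was higher (Lat) and 2 were lower (Rag1 and Igll1, both at under 25 counts in every library), and Cd3e, Cd8a, Gzma, Ncr1 and Prf1 were at 0 in all 6 libraries. The part that transcripts of such cells have in the genotype comparison was not tested.

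Chemokines and their receptors were a further group that rose, 10 of 29 tested with none lower, beside 6.04% and 2.20% of all genes. By limma with p under 0.05 before adjustment, 19 were higher and 0 lower, and the median was 1.40. The list held 45 genes, and the called Ccl8, with an IkWT/OP9 mean of 1.14, reached the filter only through IkNull/OP9 cells. Ccl6, which attracts myeloid cells, had 988, 2148 and 1862 normalized counts in IkNull/OP9 libraries, against 205, 214 and 198 in IkWT/OP9 libraries (log2 change 2.94 ± 0.29, limma adjusted p = 0.00219). Its relatives Ccl8, Ccl9, Ccl12 and Ccl24 also rose, and Ccl8 had 243, 545 and 932 normalized counts in IkNull/OP9 libraries, against 0, 2.48 and 0.952 in IkWT/OP9 libraries. Cxcr7, a scavenging receptor, had 2188, 4074 and 3399 normalized counts in IkNull/OP9 libraries, against 1271, 414 and 1156 in IkWT/OP9 libraries. Between 4 and 13 chemokine genes were higher when single libraries were left out, with the 4 without IkNull/OP9 replicate 2 and 6 without IkNull/OP9 replicate 3. Cytokines and their receptors were mixed. Of 39 tested, 2 were higher and 3 lower, beside 6.04% and 2.20% of all genes. Il6st, the shared signal chain gp130, had 628, 1191 and 734 normalized counts in IkNull/OP9 libraries, against 156, 232 and 197 in IkWT/OP9 libraries. The interleukin-9 receptor Il9r had 74.1, 39.1 and 38.2 normalized counts in IkNull/OP9 libraries, against 361, 211 and 216 in IkWT/OP9 libraries and fell, as did the interferon gamma receptor chain Ifngr2, with 525, 669.8 and 599 normalized counts in IkNull/OP9 libraries, against 1934, 1206 and 1695 in IkWT/OP9 libraries. The higher count was 9 without IkNull/OP9 replicate 1 and 1 without IkNull/OP9 replicate 2, IkWT/OP9 replicate 1 or IkWT/OP9 replicate 4.

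Receptors of progenitor cells rose in part. Of 18 surface and signalling genes of stem and progenitor cells 6 were higher and none lower (limma; 10 higher and 0 lower with p under 0.05 before adjustment), with a median of 1.65, 1 without IkNull/OP9 replicate 2 or without IkWT/OP9 replicate 4 and 2 without IkNull/OP9 replicate 3. Csf2rb, the chain shared by the receptors for GM-CSF, IL-3 and IL-5, had 4452, 5732 and 6359 normalized counts in IkNull/OP9 libraries, against 1160.1, 1152 and 1279.5 in IkWT/OP9 libraries (log2 change 2.19 ± 0.19). The close copy Csf2rb2 had 2407, 2429 and 2473 normalized counts in IkNull/OP9 libraries, against 1377, 506 and 719.7 in IkWT/OP9 libraries, and reads may be split between them. Of 26 transcription factors of stem cells and other lineages 3 were higher (Fli1, Mycn and Bach2), beside 6.04% of all genes. This count was 0 without IkNull/OP9 replicate 2, IkNull/OP9 replicate 3 or IkWT/OP9 replicate 4. It was 5 without IkWT/OP9 replicate 3 and 9 without IkNull/OP9 replicate 1. Fli1, which drives megakaryocyte genes, had 156, 174 and 141 normalized counts in IkNull/OP9 libraries, against 25.9, 70.6 and 47.6 in IkWT/OP9 libraries. In the list of EPO and KIT signalling 2 of 27 were higher, about the share of all genes (6.04%). They were the kinase Lyn, in every fit without 1 library, and the feedback inhibitor Socs3, in 2 of 6. Lyn had 1789, 1476 and 1340.3 normalized counts in IkNull/OP9 libraries, against 153, 413 and 285 in IkWT/OP9 libraries (log2 change 2.53 ± 0.35).

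Genes of glycolysis, the breakdown of glucose to pyruvate, rose in part. Of 26 tested, 9 were higher and none lower, beside 6.04% and 2.20% of all genes. By limma with p under 0.05 before adjustment, 16 were higher and 0 lower, and the median was 0.92. Pkm, pyruvate kinase, had 22038, 30548 and 18388 normalized counts in IkNull/OP9 libraries, against 4830.2, 5842 and 6530.1 in IkWT/OP9 libraries (log2 change 2.02 ± 0.26, limma adjusted p = 0.00536). Gpi1, which acts at the second step, had 4704, 7416 and 5266 normalized counts in IkNull/OP9 libraries, against 2229, 2829 and 2625 in IkWT/OP9 libraries. Ldhb, a subunit of lactate dehydrogenase, had 43.2, 139 and 108 normalized counts in IkNull/OP9 libraries, against 5.75, 10.5 and 12.4 in IkWT/OP9 libraries (log2 change 3.11 ± 0.51). Slc2a3 and Pkm kept their calls in each fit without 1 library, and the other 7 in 1 to 4 of 6. The list took 1.15%, 1.06% and 0.979% of counts in IkNull/OP9 libraries, against 0.804%, 0.788% and 0.850% in IkWT/OP9 libraries (exact permutation p = 0.1, the smallest possible). Without Slc2a3, which was left out after the values were seen, the shares were 0.790%, 0.894% and 0.835% in IkNull/OP9 libraries, against 0.792%, 0.779% and 0.841% in IkWT/OP9 libraries, and the groups overlapped. The number of called members was 2 without IkNull/OP9 replicate 2, 3 without IkWT/OP9 replicate 4 and 5 without IkWT/OP9 replicate 3. Of 79 genes of oxidative phosphorylation 1 was higher and none lower, the testis-type subunit Cox6b2, which had 12947, 9717 and 4302 normalized counts in IkNull/OP9 libraries, against 1347, 913 and 1010.1 in IkWT/OP9 libraries.

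Trp53, which encodes the tumor suppressor p53, had 3013, 3568 and 3147 normalized counts in IkNull/OP9 libraries, against 1842, 1401 and 1490 in IkWT/OP9 libraries and rose by 1.05 ± 0.18 in log2 (limma adjusted p = 0.016, called in 3 of the 6 fits that left out a library). Of a list of 38 p53 targets, which counts Trp53 itself, 6 were higher and none lower (limma; 11 higher and 2 lower with p under 0.05 before adjustment), with a median of 0.37. Eda2r, the receptor of ectodysplasin A2, had 6562, 13099 and 12532 normalized counts in IkNull/OP9 libraries, against 59.4, 131 and 193 in IkWT/OP9 libraries and was by far the largest. Mdm2, the ligase that degrades p53, had 9135, 9726 and 8690.2 normalized counts in IkNull/OP9 libraries, against 5635, 2675 and 3969 in IkWT/OP9 libraries, and Pmaip1, the death protein NOXA, had 238, 388 and 379.8 normalized counts in IkNull/OP9 libraries, against 61.4, 138 and 71.4 in IkWT/OP9 libraries. Cdkn1a, the cell cycle inhibitor p21, had 14170.2, 21399 and 24009.7 normalized counts in IkNull/OP9 libraries, against 11502, 7464 and 12423 in IkWT/OP9 libraries and did not pass (limma adjusted p = 0.0996). Eda2r was the only member called without IkNull/OP9 replicate 2, IkNull/OP9 replicate 3 or IkWT/OP9 replicate 4, and 3 were called without IkWT/OP9 replicate 3. Of 10 CDK inhibitors 1 was higher, Cdkn2b, and of 18 BCL2 family genes 2, Pmaip1 and the survival factor Bcl2l2, which had 427, 404 and 460.2 normalized counts in IkNull/OP9 libraries, against 130.4, 169 and 195 in IkWT/OP9 libraries. Over all genes tested 6.04% were called higher.

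Few erythroid genes were called. None of 4 adult globin genes was (median log2 change 0.68, all 4 positive, limma; 0 with p under 0.05 before adjustment, 0 with edgeR and 1 with DESeq2). Adult globins took 21.9%, 21.5% and 15.1% of counts in IkNull/OP9 libraries, against 15.3%, 13.03% and 12.9% in IkWT/OP9 libraries, groups that overlapped (exact permutation p = 0.2). Hbb-b1 on its own took 14.0%, 14.2% and 10.6% in IkNull/OP9 libraries, against 9.82%, 8.79% and 7.99% in IkWT/OP9 libraries (exact permutation p = 0.1, the smallest possible), and its log2 change was 0.76 ± 1.31 (limma adjusted p = 0.737). The variance of the model follows a trend over levels, and without the trend the adjusted p of the gene Hbb-b1 was 0.19. Hba-a1 and Hba-a2, and likewise Hbb-b1 and Hbb-b2, are near-identical copies whose reads may be split.

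Embryonic globins, which the fetal liver normally keeps at low levels, were high in 1 mutant library. Hbb-bh1 had 295238, 14339 and 4387 normalized counts in IkNull/OP9 libraries, against 478, 112 and 2571 in IkWT/OP9 libraries, and Hbb-y had 39554, 1502 and 979.6 normalized counts in IkNull/OP9 libraries, against 178, 254 and 686 in IkWT/OP9 libraries. The high library was IkNull/OP9 replicate 1 for both, the remaining mutant values lay above those of IkWT/OP9 by much less, and neither gene passed the test (limma adjusted p = 0.067 and 0.114). With DESeq2 on 5 libraries the adjusted p of the gene Hbb-bh1 was 0.000446, and without IkNull/OP9 replicate 1 the limma value was 0.0709. Of 5 embryonic globin genes none was called by limma or edgeR, and 2 were higher with p under 0.05 before adjustment and with DESeq2. Together they took 1.22%, 0.0786% and 0.0403% of counts in IkNull/OP9 libraries, against 0.0221%, 0.0198% and 0.0374% in IkWT/OP9 libraries (exact permutation p = 0.1).

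Heme synthesis counted 0 higher and 1 lower of 17, the mitochondrial glycine carrier Slc25a38, with a median of -0.17. The counts in this paragraph stand beside 6.04% higher and 2.20% lower over all genes. Of 28 genes of the red cell membrane and skeleton 2 were higher, Cd36 and the tropomodulin Tmod3, and 1 was lower, the adhesion molecule Icam4. Cd36, a receptor for fatty acids and thrombospondin, had 1381, 3121 and 2537 normalized counts in IkNull/OP9 libraries, against 551, 538 and 408 in IkWT/OP9 libraries (log2 change 2.16 ± 0.31). Of 24 genes of late maturation 2 were higher, Ube2l6 and the coregulator Cited2. Cited2 had 1285, 1178 and 1195 normalized counts in IkNull/OP9 libraries, against 503, 405 and 431 in IkWT/OP9 libraries, a rise of 1.45 ± 0.17 in log2 that every fit without 1 library kept. Of 22 erythroid transcription factors none was higher and 3 were lower, E2f4, Zbtb7a and Nrf1 (beside 2.20% of all genes), and with p under 0.05 before adjustment limma had 1 higher and 7 lower. E2f4, which is needed for the expansion of fetal erythroid cells, had 2221, 1191 and 1508 normalized counts in IkNull/OP9 libraries, against 5462, 3839 and 4398 in IkWT/OP9 libraries. Zbtb7a, a repressor of fetal globin genes in human cells, had 2073, 1578 and 1934 normalized counts in IkNull/OP9 libraries, against 3913, 3032 and 2957 in IkWT/OP9 libraries. All 3 calls were lost without IkNull/OP9 replicate 2, IkNull/OP9 replicate 3 or IkWT/OP9 replicate 4, and with edgeR, and 1 was left without IkWT/OP9 replicate 1 or 3. Iron genes counted 2 higher (Heph and Hfe) and 1 lower, the exporter ferroportin, Slc40a1, which had 792, 674 and 564 normalized counts in IkNull/OP9 libraries, against 1573, 1214 and 1255 in IkWT/OP9 libraries.

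Cell cycle genes lay mostly below IkWT/OP9 but were not called one by one. Of 41 tested, limma called none, while 22 were lower and 0 higher with p under 0.05 before adjustment, edgeR called 0 and DESeq2 1, and for 22 every IkNull/OP9 value lay below every IkWT/OP9 value, beside 16.7% of all genes. The median was -0.58. Ccne1, cyclin E1, had 1488, 799.7 and 809 normalized counts in IkNull/OP9 libraries, against 1749, 2251 and 2185 in IkWT/OP9 libraries (limma adjusted p = 0.0541). Without IkNull/OP9 replicate 1, 14 members were called lower, and 11 were at the same total. Of 47 histone genes 5 were lower and none higher, beside 2.20% and 6.04% of all genes, with a median of -0.73. By limma with p under 0.05 before adjustment, 13 were lower and 0 higher. H1f0, a linker histone of resting cells with a polyadenylated message, had 1334, 1032 and 2899 normalized counts in IkNull/OP9 libraries, against 5686, 4461 and 6184 in IkWT/OP9 libraries. The replication-type Hist1h1e and Hist1h2bg, whose messages mostly lack poly(A) tails and are poorly caught by oligo-dT, were at low counts. The count was 0 without IkWT/OP9 replicate 4, 1 without IkNull/OP9 replicate 2, 2 without IkWT/OP9 replicate 1, 3 without IkWT/OP9 replicate 3 and 8 without IkNull/OP9 replicate 1.

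Chromatin complexes that work with IKAROS had calls at about the share of all genes (6.04% higher). In NuRD 1 of 15 was higher, the remodeler Chd5, with 42.0, 56.8 and 73.3 normalized counts in IkNull/OP9 libraries, against 16.3, 13.01 and 9.52 in IkWT/OP9 libraries. The Chd5 call was lost without IkNull/OP9 replicate 2, IkNull/OP9 replicate 3 or IkWT/OP9 replicate 4, with edgeR and with the replicate block. Chd4, the main remodeler of NuRD in blood cells, had 2865, 2839 and 2346 normalized counts in IkNull/OP9 libraries, against 2378, 2767 and 2696 in IkWT/OP9 libraries (log2 change 0.04 ± 0.18). In BAF 1 of 23 was higher, Actl6b, while 13 lay below IkWT/OP9 in every library (beside 16.7% of all genes) with a list median of -0.43. Without IkNull/OP9 replicate 1, 5 BAF genes were lower. None of 20 PRC2, DOT1L and elongation genes was called by limma, edgeR or DESeq2 (0 higher and 6 lower with p under 0.05 before adjustment). In the IKAROS family the paralog Ikzf2, known as HELIOS, rose with 95.1, 169 and 137 normalized counts in IkNull/OP9 libraries, against 13.4, 24.8 and 29.5 in IkWT/OP9 libraries, lost only without IkNull/OP9 replicate 2, and the other 4 members did not pass.

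NOTCH pathway genes on this stroma, which had no added NOTCH ligand, counted 1 higher and 1 lower of 22, beside 6.04% and 2.20% of all genes. Without IkNull/OP9 replicate 1 there were 3 higher and without IkWT/OP9 replicate 3 there were 2, with none lower in either fit. The higher one was Maml3, given above, and the lower one Lfng, a glycosyltransferase that modifies NOTCH receptors, with 48.2, 65.6 and 62.3 normalized counts in IkNull/OP9 libraries, against 104, 207 and 147 in IkWT/OP9 libraries (called in 1 of the 6 fits that left out a library). Hes1, a classical NOTCH target, had 6.18, 15.1 and 26.1 normalized counts in IkNull/OP9 libraries, against 13.4, 7.43 and 11.4 in IkWT/OP9 libraries and did not pass, and Hes5 and Ptcra were at 0. Of the 12 genes that the study followed by name, Trp53 was the only one called. Il6 had 22.2, 10.1 and 38.2 normalized counts in IkNull/OP9 libraries, against 2.88, 4.96 and 14.3 in IkWT/OP9 libraries, and Zfp446 had 100.1, 174 and 125 normalized counts in IkNull/OP9 libraries, against 63.3, 65.1 and 71.4 in IkWT/OP9 libraries, with limma adjusted p of 0.16 and 0.0702.

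The remaining lists held few changes, and over all genes 6.04% were called higher and 2.20% lower. Ribosomal proteins had 0 calls of 80 by limma, edgeR and DESeq2 (1 higher and 0 lower with p under 0.05 before adjustment). Among 29 antioxidant genes 1 was higher, the glutathione transferase Gstp1, which had 2569, 2778 and 2136 normalized counts in IkNull/OP9 libraries, against 601, 675 and 1301 in IkWT/OP9 libraries. Cathepsins had 3 of 16 higher, and the most abundant, Ctsl, had 5959, 12706 and 11504 normalized counts in IkNull/OP9 libraries, against 989, 2242 and 1596 in IkWT/OP9 libraries (log2 change 2.65 ± 0.38). Immediate-early genes had 3 of 25 higher (Nr4a2, Zfp36 and Ier3), carbonic anhydrases 1 of 7 (Car4) and neuroendocrine granule genes 2 of 7 (Chga and Vgf). The unfolded protein response had 2 of 27 higher, Creb3l1 and Edem1, and 1 lower, Chac1, autophagy had 0 higher and 1 lower of 31, Atg4d, and reference genes 1 of 15 higher, Pgk1. Sex-linked genes had 0 calls of 5 by limma, edgeR and DESeq2, and 0 with p under 0.05 before adjustment. Of the genes in this paragraph Ctsl, Car4, Chga and Creb3l1 were called in every fit without 1 library. Over the 48 lists, 142 different genes were higher and 24 lower.

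The cultures of the same numbers on OP9-DL1 were used to test whether the effect of the genotype differed with the NOTCH ligand. The change from OP9 to OP9-DL1 was taken per culture and compared between IkNull and IkWT with limma, and 0 of 13736 genes (0%) passed, with 630 higher and 384 lower with p under 0.05 before adjustment. The interaction in a fit of all 12 libraries also gave 0, with 40 higher and 15 lower with p under 0.05 before adjustment. With so few cultures a difference can be missed, so the lack of calls does not show that the effects were equal. In log2, F11r changed by 5.17 ± 0.18 on OP9 and by 5.67 on OP9-DL1, Mt1 by -2.91 ± 0.30 and -2.91, and Itgb3 by 4.40 ± 0.30 and 4.63. Among called genes the smallest p for the difference was that of Myct1, at 4.39 ± 0.68 on OP9 and 2.38 on OP9-DL1, which did not pass either (limma adjusted p = 0.205). The libraries of both stromas share their culture numbers, so the values on OP9-DL1 are not taken as an independent repeat.

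How many genes were called depended on the library left out. IkNull/OP9 replicate 1 lay nearest to IkWT/OP9 among the mutant libraries for 450 of the 829 higher and 172 of the 302 lower genes. Without it, 1424 genes were higher and 632 lower, whereas without IkNull/OP9 replicate 2 there were 227 and 53, without IkNull/OP9 replicate 3 there were 421 and 114, without IkWT/OP9 replicate 1 there were 614 and 154, without IkWT/OP9 replicate 3 there were 698 and 202, and without IkWT/OP9 replicate 4 there were 313 and 60. In all 6 of these fits 216 genes were higher and 45 lower. Higher genes made up 73.3% of the calls with the size factors as deposited and 69.7% with TMM scaling, but 42.5% when every library was set to the same total, which moved the median of all genes to -0.22 in log2.

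**Figure D5:**
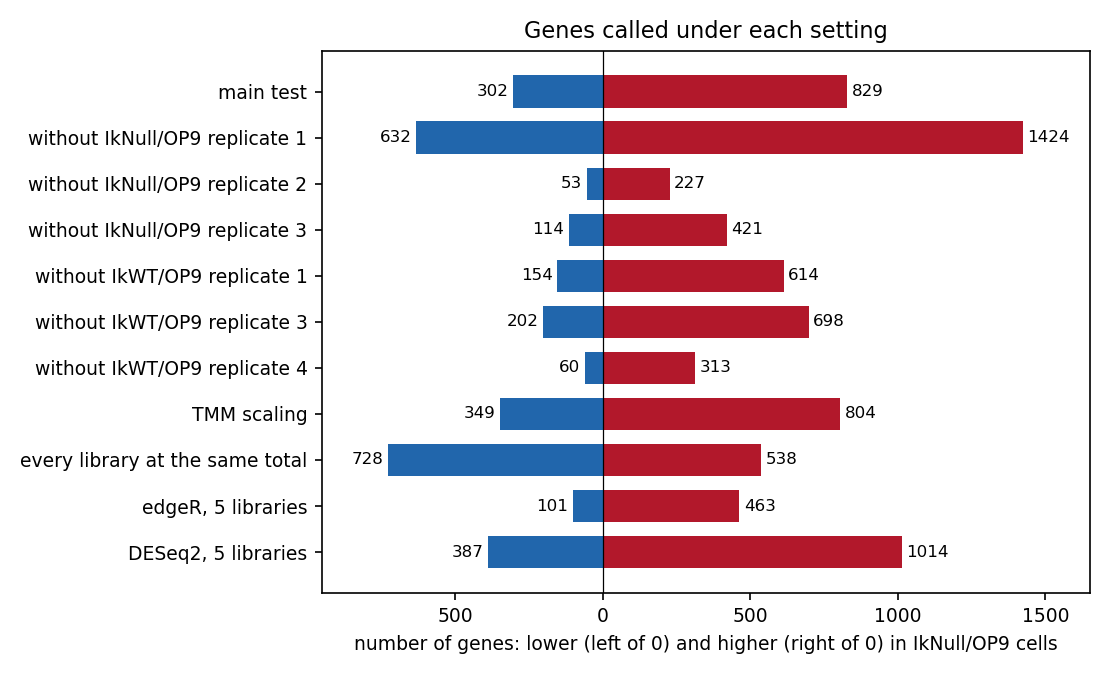
Number of genes called lower (blue, left of 0) and higher (red, right of 0) in IkNull/OP9 cells under 11 settings (rows), with the count printed at each bar. Of the settings drawn, leaving out IkNull/OP9 replicate 2 or IkWT/OP9 replicate 4 gives the fewest calls, leaving out IkNull/OP9 replicate 1 the most higher ones, and only the common total gives more lower than higher genes.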

How the data were processed

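RNA was measured in 12 libraries of erythroid cells, 6 of them on OP9. The authors enriched poly(A) RNA with oligo-dT, prepared TruSeq libraries and, as the submitters' processing notes name them, used HTSeq 0.5.3 and DESeq2 1.0.19 after TopHat2 2.0.9 and CASAVA 1.8, with the build mm10. For the strand setting and the annotation release of the counting, nothing was given in the sources read. The deposited signal values are counts per gene over a size factor of each library, as the authors made them, for 38250 genes with 36345 placed here by GENCODE vM21 on GRCm38. All columns had a sample (0 without one), and 4 tables that hold the authors' own fold changes and p-values were not used.

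Genes with a mean of at least 5 were tested on log2(value + 1) with limma 3.58.1 (R 4.3.3, moderated variance with a trend, Benjamini-Hochberg adjustment), 6 libraries and no covariate. Single shares of counts were compared with a two-sided exact permutation test, whose smallest p is 0.1. Dividing by the smallest step gave back whole reads in 5 of the 6 OP9 libraries (100% of values within 0.01), with 21.3 to 31.0 M reads, and edgeR 4.0.16 and DESeq2 1.42.0 were run on those as alternatives. For IkNull/OP9 replicate 3 the step could not be settled. The 3 tools were tested on simulated data.

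Named genes are the 12 largest rises and falls among called genes whose mean reached 50, the 8 most abundant called genes in each direction, the 5 smallest adjusted p in each, up to 4 members of each of 48 lists with the smallest adjusted p, those the study names, the 8 most variable among IkNull libraries, and the 6 called genes with the smallest p for a difference between stromas or the most abundant noncoding ones. Further members of lists that were called are named where they stand for a function. The genes compared and the lists were chosen with earlier results of these data known. Promoter sequences are from RefSeq. A few genes are not reported here. Alternatives covered the pseudocount, the filter, the scaling, the tool, the threshold, the replicate block, the 12 libraries together and each library left out.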

Additional observations from a re-analysis of the deposited data

How the results depend on the processing

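Among the called genes picked by the naming rules above, no direction turned under any setting. Further list members named in the text were not part of this check. Of 145 genes so picked, 2 to 8 lost their call with another pseudocount, another filter, TMM scaling, DESeq2, 12 libraries together or culture as a random block. The number was 25 at the same total, 30 without a variance trend and 54 with edgeR. Genes that a setting did not test are not counted as lost. At a minimum mean of 20, 134 kept their call and 4 lost it. Leaving out single libraries cost 7 calls without IkNull/OP9 replicate 1 and 80, 54, 43, 29 and 68 without IkNull/OP9 replicates 2 and 3 and IkWT/OP9 replicates 1, 3 and 4. Over these 6 fits, higher genes (829 with all libraries) numbered 227 (without IkNull/OP9 replicate 2) to 1424 (without IkNull/OP9 replicate 1) and lower genes (302) numbered 53 to 632 with the same libraries. List members numbered 43 to 248 higher (142 with all libraries) and 5 to 55 lower (24), the 5 without IkWT/OP9 replicate 4. Setting every library to the same total gave 538 higher and 728 lower genes and 73 lower list members. On the 5 libraries with whole reads edgeR gave 463 higher and 101 lower genes and 81 higher and 12 lower list members, and DESeq2 gave 1014 and 387 genes with 50 lower list members. Without a variance trend 178 genes were lower. At a log2 threshold of 1.5, 112 genes and 13 list members were lower. With 12 libraries and culture as a random block 42 list members were lower. Without replicate 1 of both genotypes, a setting chosen after seeing the data, 1941 genes were higher and 728 lower, with 306 and 55 list members. In the remaining settings without a replicate block these counts stayed within 1.5 times. The count of genes that passed the test for a difference between the stromas was 0 throughout. The causes of these shifts were not tested.

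The genotypes share the numbers 1 and 3, and what a number marks is not stated. The study says that mutants were compared with littermates of the wild type, but does not tie litters to these numbers. Deviations from the group mean correlated with r = 0.37 for the libraries numbered 1 and 0.21 for those numbered 3, against -0.30 to 0.21 for libraries of different number, and with only 2 shared numbers the samples were not treated as paired. With the replicate block 826 genes were higher and 183 lower in 6 libraries, where 36 of the 145 named calls were lost, and 1788 were higher and 600 lower in 12 libraries, with 285 and 57 list members in that fit of 12. Under the block only the numbers 1 and 3 hold both genotypes. The genotype change in the block fit of 6 libraries thus rests on those 2 numbers, with little left to measure the spread. The embryonic gene Hbb-bh1, which limma did not call without the block, had a limma adjusted p of 2.67e-05 with it in 6 libraries. It was 0.000905 with the block in 12 libraries and 0.0137 with culture as a random block. Number 1 includes IkNull/OP9 replicate 1, by far the highest library for this gene.

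With 3 libraries against 3, small changes have wide errors. IkNull/OP9 replicate 3 entered no count model. Genes with close copies, overlapping genes and antisense pairs carry uncertain counts, and RNA without poly(A) is poorly covered.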

Other observations

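Most called genes encode proteins, 786 of the 829 higher and 295 of the 302 lower. The higher ones also held 16 pseudogenes, 12 lincRNAs, 8 antisense transcripts and 7 processed transcripts, and the lower ones held 5 antisense and 2 processed transcripts. The antisense RNA 1700042O10Rik (chromosome 11, 11868123 to 11885321), which overlaps Ddc on the other strand, had 136, 177 and 117 normalized counts in IkNull/OP9 libraries, against 1.92, 1.24 and 1.90 in IkWT/OP9 libraries. Gm14198, antisense to Zfp341, went the other way with 17.3, 5.05 and 2.01 normalized counts in IkNull/OP9 libraries, against 448, 170.4 and 173 in IkWT/OP9 libraries. Both were apart in every library, with log2 changes of 5.73 ± 0.36 and -5.10 ± 0.69, and reads of a gene and its antisense partner cannot be told apart without the strand. Transcript 2900052L18Rik had 295, 402 and 213 normalized counts in IkNull/OP9 libraries, against 73.8, 62.6 and 111 in IkWT/OP9 libraries, and the unnamed E330020D12Rik had 12578, 6176 and 672 normalized counts in IkNull/OP9 libraries, against 128, 21.7 and 33.3 in IkWT/OP9 libraries, the lowest mutant value being that of replicate 3.

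Some genes differed more among the mutant libraries than between genotypes. Dsg1a, a desmosomal cadherin, had 0, 13853 and 6156 normalized counts in IkNull/OP9 libraries, against 0, 5270.4 and 46.7 in IkWT/OP9 libraries. Slc15a2, a peptide transporter, had 6.18, 1017 and 2044 normalized counts in IkNull/OP9 libraries, against 2562, 2.48 and 0 in IkWT/OP9 libraries. High and low libraries thus stood in both genotypes, and neither gene was called. The same held for sex-linked genes. Ddx3y, on the Y chromosome, had 2240, 0 and 4.02 normalized counts in IkNull/OP9 libraries, against 5.75, 1531 and 4.76 in IkWT/OP9 libraries, and Xist, expressed from the inactive X, had 14.8, 15585 and 16177 normalized counts in IkNull/OP9 libraries, against 17036, 29.7 and 13262 in IkWT/OP9 libraries, so that 1 library of each genotype had Y transcripts and little Xist. These are the libraries IkNull/OP9 replicate 1 and IkWT/OP9 replicate 3, which do not share a number.

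Called genes lay on all autosomes and X, from 5.17% of the genes tested on X and 6.44% on chromosome 8 to 10.1% on chromosome 7. Within 10 Mb of Ikzf1, a window chosen after the values were seen, 11 of 117 genes tested were higher and 2 lower. Called genes thus made up 11.1% of that window, beside 8.93% of the genes tested on chromosome 11. Of all genes tested, 6.04% were higher and 2.20% lower. The antisense RNA 1700042O10Rik given above lies in that window.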
